A study of Mus musculus with 20 samples.

Results

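Genes of calcium channels, pumps, exchangers and release channels were followed in RNA sequencing of mouse islets that lacked mitofusins in the β cell. Accessory subunits, store sensors and all TRPM channels were included, and some of these do not carry calcium themselves. All genes were taken by symbol alone, with a rule that used no measured value but was set with earlier results of these data known. It took every protein-coding gene whose symbol begins with Cacn, Atp2a, Atp2b, Orai, Trpm or Slc8a. Protein-coding genes beginning with Ryr or Itpr and a digit, and Stim1 and Stim2, were also taken. The rule found 55 genes, all present among the 28632 genes of the count table. They comprise 10 pore-forming α1 subunits of voltage-gated calcium channels with 4 α2δ, 4 β and 8 γ subunits, 5 genes of store-operated entry, 3 IP3 receptors, 3 ryanodine receptors, 3 SERCA pumps, 4 plasma membrane calcium pumps, 3 sodium-calcium exchangers and 8 TRPM channels. Islets came from mice on a C57BL/6N background at 12 weeks of age, isolated with collagenase and cultured before RNA was taken. The 20 libraries fall into Ctrl (n = 6, 3 female and 3 male), Mfn1-/- (β-Mfn1KO, n = 4, 3 female and 1 male), Mfn2-/- (β-Mfn2KO, n = 5, 2 female and 3 male) and Mfn1-/-;Mfn2-/- (β-Mfn1/2DKO, n = 5, 2 female and 3 male). In all 3 knockout groups 1 floxed exon of the gene was removed by Cre recombinase driven from Ins1, so the deletion is aimed at β cells while the islet also holds α, δ and other cells. The labels call Ctrl wild type, whereas the study's methods describe controls that carried Ins1-Cre alone or floxed alleles alone. The sources used here do not say how many mice a library holds, and p-values measure the spread between these libraries.

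Mfn1 and Mfn2 encode GTPases of the outer mitochondrial membrane that fuse mitochondria, and Mfn2 is also found where mitochondria meet the endoplasmic reticulum. In the β cell, glucose metabolism closes potassium channels, the membrane depolarizes, and voltage-gated channels admit the calcium that triggers insulin exocytosis. SERCA pumps load calcium into the endoplasmic reticulum, IP3 receptors and ryanodine receptors release it, STIM proteins sense an emptied store and open ORAI channels, and plasma membrane pumps and sodium-calcium exchangers return calcium to the outside.

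Values are TMM-normalized counts at a mean library size unless stated. Library totals ran from 12400687 to 20329064 counts in Ctrl, 15745680 to 16685381 in β-Mfn1KO, 15110046 to 59533407 in β-Mfn2KO and 65533388 to 122947313 in β-Mfn1/2DKO, so depth and the β-Mfn1/2DKO genotype cannot be told apart, except against 2 deep β-Mfn2KO libraries. Those are replicates 4 and 5 of β-Mfn2KO, at 55962873 and 59533407 counts. Mfn1 lay at 1518 to 1807 in Ctrl, 621 to 770.4 in β-Mfn1KO, 1683 to 1807 in β-Mfn2KO and 687 to 1062 in β-Mfn1/2DKO. Mfn2 lay at 3089 to 4373, 3869 to 4607, 1474 to 1688 and 2022 to 2131 in the same order, so each targeted gene was lower in every library labelled as lacking it. Of 10 β cell markers, 10 were lower in β-Mfn1/2DKO than in Ctrl, and their summed level was 64700 to 87900 CPM against 146000 to 234000. Acinar markers (11 of 12 higher) summed to 451 to 42900 CPM in β-Mfn1/2DKO against 292 to 1850 in Ctrl, with replicates 4 and 5 of β-Mfn1/2DKO at 16970 and 42900 and replicate 4 of β-Mfn2KO at 7284. Endothelial markers (7 of 7 higher) summed to 206 to 323 against 143 to 215, and α cell markers (1 of 6 higher) to 31400 to 52600 against 15600 to 49800. No marker of the β, α or endothelial lists was at 0 in any library. Leukocyte markers (0 of 6 passed) and stellate cell markers (1 of 7 higher) set apart replicate 6 of Ctrl, at 508 and 332 CPM, and replicate 5 of β-Mfn2KO, at 713 and 358, where no other library exceeded 139.6 and 109. Replicates 4 and 5 of β-Mfn2KO, high in acinar and in leukocyte markers respectively, are thus the deep libraries of that group. Fits with a depth term and fits among deep libraries rest on them alone. Depth and these markers cannot be told apart there. Duct markers (2 of 6 higher) summed to 835 to 1030 against 633 to 840, Schwann cell and neuron markers gave 1 higher and 1 lower of 6, and 0 of the 4 δ cell and 2 PP cell markers passed. With an acinar score added to the fit, the 12 members that passed against Ctrl below all stayed past, and without both libraries high in leukocyte markers (a choice made after seeing the data) they did too. The part of the β cell, endothelial and α cell shifts in the results was not tested, and in bulk islets fewer cells of a type and less RNA per cell cannot be told apart.

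In Ctrl islets 2 of the 3 SERCA pump genes stood above every other member. Levels between genes are given as normalized CPM per kb of merged exon. Atp2a2, which encodes SERCA2, the pump found in most cells, was at 311 ± 22.8 (SD, n = 6), and Atp2a3, which encodes SERCA3, was at 199 ± 14.3. The ranges of these genes did not overlap each other or the next gene, the β-subunit gene Cacnb3 (20.4 ± 1.95). The genes that followed, from Orai3 (17.0 ± 1.11) through Itpr3 (13.5 ± 1.29), Atp2b1 (13.2 ± 0.878), Cacna2d1 (12.7 ± 0.792), Itpr1 (12.5 ± 1.65), Cacna1d (12.5 ± 0.501), Stim1 (11.7 ± 0.577), Trpm5 (10.3 ± 1.52) and Cacna1a (9.69 ± 0.597) to Stim2 (7.61 ± 0.243), changed by small steps. The ranges of neighbours from Itpr3 to Cacna1a overlapped, and that of Orai3 overlapped Cacnb3 but not Itpr3. Among the voltage-gated pores the order was Cacna1d and Cacna1a, then Cacna1c (5.06 ± 0.379), then Cacna1h (1.47 ± 0.231) and Cacna1b (1.43 ± 0.0871), then Cacna1g (0.413 ± 0.0937) and Cacna1i (0.254 ± 0.127).

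The ryanodine receptors, the store-release channels of muscle and neurons, were near the other end of the order. Ryr3 was at 0.0295 ± 0.0155, Ryr2 at 0.00304 ± 0.00420 and Ryr1 at 0.000537 ± 0.00132 CPM per kb, and the count of Ryr3 is uncertain, since its exons overlap Aven on the opposite strand. The highest normalized count of Ryr2 in any of the 20 libraries was 18.8. The R-type pore gene Cacna1e was also near the bottom (0.0195 ± 0.00568). In all, 30 of the 55 members reached a level of 1 in Ctrl. With the longest coding transcript as the length the number was 31, and Orai3 moved from rank 4 to rank 9 and Itpr3 from rank 5 to rank 12.

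**Figure D1:**
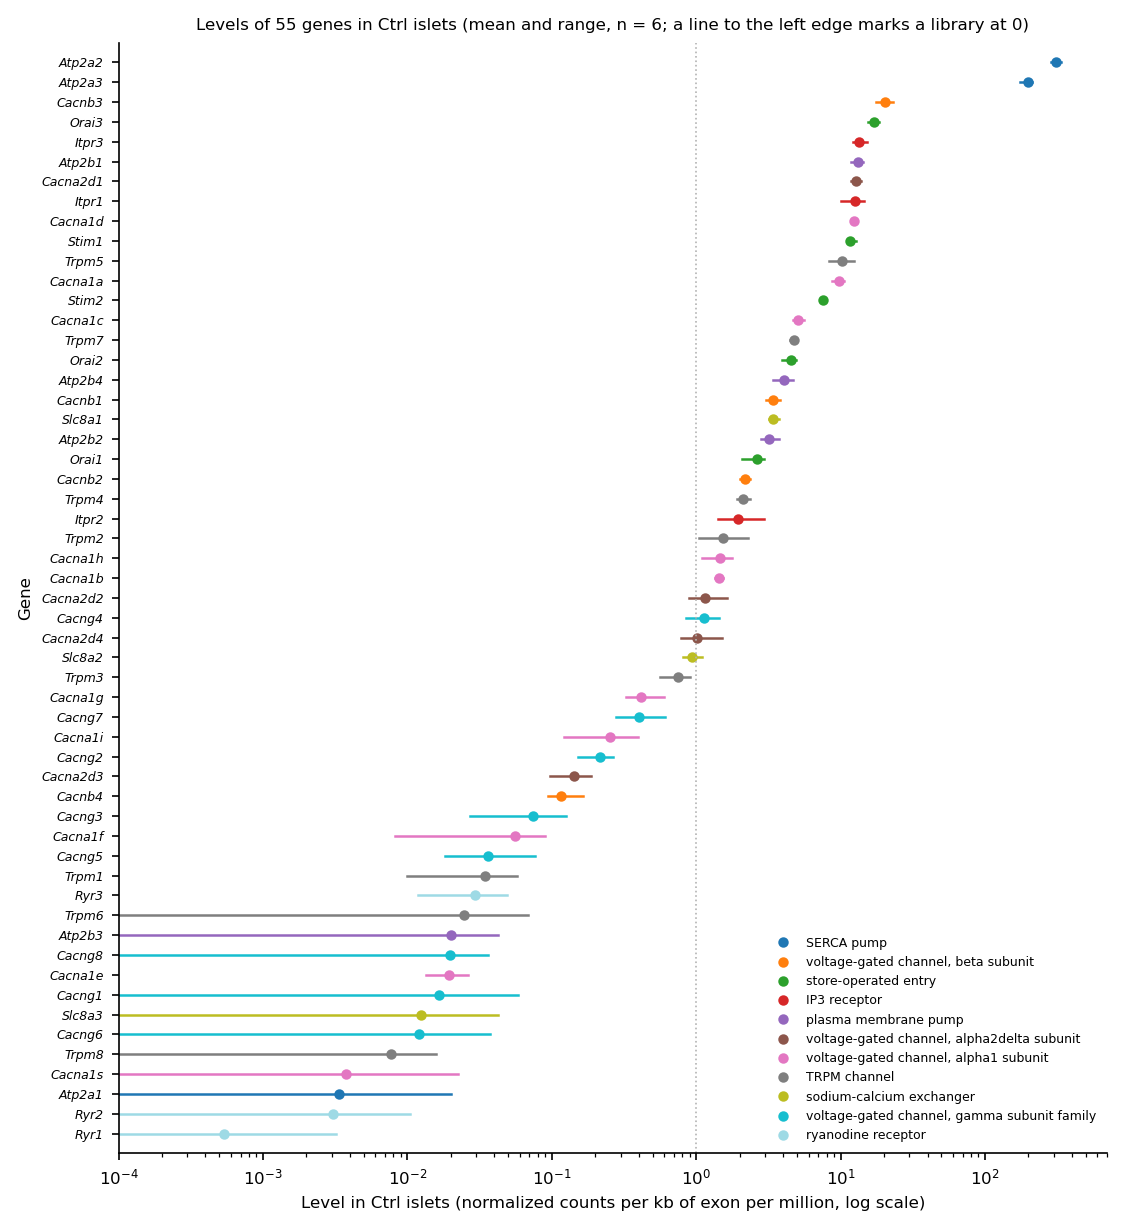
Level of each of the 55 genes in Ctrl islets, in CPM per kb of merged exon on a log scale, coloured by class. Points are means and lines span the 6 libraries, a line that reaches the left edge includes a library at 0, and the dotted line marks a level of 1. Atp2a2 and Atp2a3 stand apart at the top and Ryr2 and Ryr1 are the lowest.

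Members were tested in edgeR's quasi-likelihood model fitted to all genes, with Benjamini-Hochberg adjustment over all of them. A member passed where the adjusted p was under 0.05, and was called where the fold also exceeded 1.5. In β-Mfn1/2DKO against Ctrl, 12 of the 55 members passed, 8 higher and 4 lower, beside 16.5% of all genes (9.59% higher and 6.86% lower). Averaged over all libraries, 34 members reached 100 normalized counts, and 10 of these passed (6 higher and 4 lower) beside 33.6% of all genes of that abundance. The called members were Orai2, Itpr2, Cacna1g and, near the detection floor, Trpm8 among the higher, and Trpm5 among the lower (5 of 55, beside 5.21% of all genes). The median log2 fold change over all 55 members was 0.18, against 0.06 over all genes. Among those that averaged 100 normalized counts or more it was 0.09 for members, against 0.03 for all genes. With total-count scaling, which raised the median of all genes by 0.14 on the log2 scale, 22 members passed, 20 higher and 2 lower, so smaller changes are stated relative to TMM scaling.

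No member passed in either knockout of 1 mitofusin. In β-Mfn2KO against Ctrl 0 of 55 passed in edgeR and 0 in DESeq2, 1 had an unadjusted p under 0.05, and 0.0559% of all genes passed. In β-Mfn1KO against Ctrl 0 passed in edgeR and 0 in DESeq2, 7 had an unadjusted p under 0.05, all of them lower, and 0.0279% of all genes passed. β-Mfn1/2DKO differed from β-Mfn2KO at 16 members, 10 higher and 6 lower, beside 13.0% of all genes (7.09% higher and 5.9% lower). It differed from β-Mfn1KO at 19 members, 15 higher and 4 lower, beside 17.4% of all genes (9.67% higher and 7.69% lower). Called were 6 members against β-Mfn2KO (3.84% of all genes) and 7 against β-Mfn1KO (6.71%). These comparisons share the β-Mfn1/2DKO libraries, as the comparisons with Ctrl share the Ctrl libraries. The interaction term, which asks whether the loss of Mfn1 had another effect without Mfn2 than with it, passed for 5 members, all positive, beside 5.92% of all genes (2.88% positive), and 2 of them, Itpr2 and Orai2, exceeded 1.5-fold, beside 2.74%. Members are more abundant than most genes: 34 of the 55 averaged 100 normalized counts or more, against 12274 of 28632 genes. Shares among genes of that abundance were taken only against Ctrl, so no excess of members is read from these counts.

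**Figure D2:**
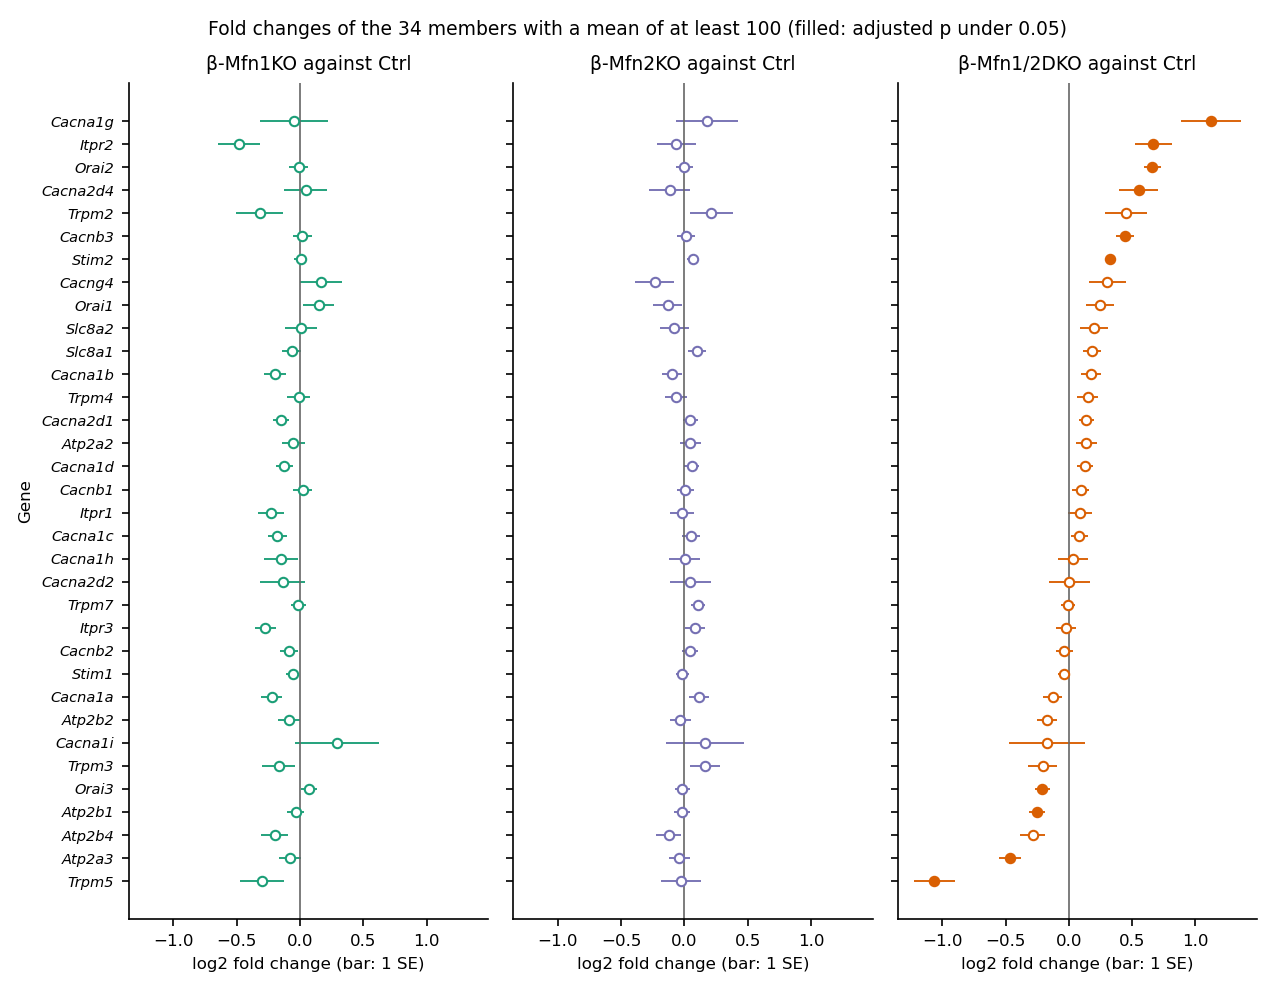
Log2 fold change against Ctrl of the 34 members that averaged 100 normalized counts or more, in β-Mfn1KO, β-Mfn2KO and β-Mfn1/2DKO, with bars of 1 SE and filled points where the adjusted p was under 0.05. All points of the first and second panels are open, while 10 are filled in the third, from Trpm5 at the bottom to Cacna1g at the top.

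Against Ctrl, 3 of the 5 genes of store-operated entry passed, 2 higher and 1 lower, the largest number of any class. All 5 averaged 100 normalized counts or more, where 33.6% of all genes passed. Orai2 (ENSMUSG00000039747, GRCm38 chr5:136147459-136170713, minus strand), a pore subunit of the store-operated channel, had in β-Mfn1/2DKO 1751, 1620.3, 1705, 1997 and 1926 normalized counts. In Ctrl it had a lowest value of 993, a median of 1149 and a highest value of 1233, in β-Mfn1KO 1219.8, 1136, 1147 and 1023, and in β-Mfn2KO 1075, 1012, 1244, 1167 and 1193. All 5 β-Mfn1/2DKO libraries were above all 15 others, and the other groups overlapped throughout. Orai2 rose by 0.66 ± 0.07 (log2, SE; adjusted p = 5.98e-07) against Ctrl, by 0.66 ± 0.07 (adjusted p = 1.95e-06) against β-Mfn2KO and by 0.67 ± 0.08 (adjusted p = 2.41e-06) against β-Mfn1KO. It was the member with the smallest adjusted p in each of these comparisons.

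Stim2 (ENSMUSG00000039156, GRCm38 chr5:53998499-54121057, plus strand), the store sensor that responds to small drops in store calcium, had in β-Mfn1/2DKO 2019.5, 2132, 2054, 1967 and 1972. In Ctrl it had a lowest value of 1550.5, a median of 1629.6 and a highest value of 1672, in β-Mfn1KO 1661, 1504, 1669 and 1658, and in β-Mfn2KO 1707, 1606, 1857, 1684 and 1640.5. Again every β-Mfn1/2DKO library lay above every other library, by a smaller step than for Orai2. Stim2 rose by 0.33 ± 0.04 (adjusted p = 1.83e-05) against Ctrl and by 0.26 ± 0.05 (adjusted p = 0.000572) against β-Mfn2KO, under the 1.5-fold limit. Orai3 (ENSMUSG00000043964, GRCm38 chr7:127769815-127775150, plus strand), the most abundant pore subunit of the class per length, had 1327, 1311, 1332, 1329.8 and 1219.9 in β-Mfn1/2DKO. It had a lowest value of 1369, a median of 1540.0 and a highest value of 1638 in Ctrl, 1597, 1735, 1406 and 1616 in β-Mfn1KO and 1597, 1481, 1586, 1405 and 1409 in β-Mfn2KO. All of its β-Mfn1/2DKO values were below all values of the other groups. Orai3 fell by 0.21 on the log2 scale (SE 0.06, adjusted p = 0.0131) against Ctrl.

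Orai1, the pore subunit best known from immune cells, had means of 253 ± 30.4 in Ctrl, 280.3 ± 39.4 in β-Mfn1KO, 229.8 ± 19.2 in β-Mfn2KO and 300.2 ± 34.3 in β-Mfn1/2DKO (SD), a log2 difference from Ctrl of 0.25 ± 0.11 in β-Mfn1/2DKO that did not pass (adjusted p = 0.141). Against β-Mfn2KO Orai1 was higher by 0.38 ± 0.11 (adjusted p = 0.0276). Stim1, the principal store sensor, had 5023 ± 248 in Ctrl, 4828 ± 101 in β-Mfn1KO, 4973 ± 335 in β-Mfn2KO and 4888 ± 220.2 in β-Mfn1/2DKO, a β-Mfn1/2DKO difference from Ctrl of -0.04 ± 0.05 (adjusted p = 0.66). The balance within the family needs no scaling between libraries. Orai2 made up 52.8 ± 2.06% (SD) of all Orai counts in β-Mfn1/2DKO, against 39.3 ± 2.6% in Ctrl, 37.8 ± 2.88% in β-Mfn1KO and 39.7 ± 2.21% in β-Mfn2KO. Orai3 made up 38.4 ± 2.57% against 52.0 ± 3.13%, 52.9 ± 2.51% and 52.2 ± 2.72%. Orai2 thus held the largest count share of the family in every β-Mfn1/2DKO library (50.6 to 55.1%), and Orai3 did in the other groups. These shares are not corrected for gene length. Per kb of merged exon Orai3 still stood above Orai2 in β-Mfn1/2DKO, at 14.7 against 7.15 CPM per kb. By the longest coding transcript it was 14.7 against 10.9. Stim2 was 28.1 to 31.3% of the Stim counts per library in β-Mfn1/2DKO and 22 to 25.6% in Ctrl, ranges that did not overlap.

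Orai2 stayed past an adjusted p of 0.05 against Ctrl in every alternative run, and was 0.57 (adjusted p = 0.015) with a depth term and 0.66 (adjusted p = 0.00392) against β-Mfn2KO among deep libraries. For Stim2 these were 0.38 (adjusted p = 0.0144) and 0.34 (adjusted p = 0.0113), but with the authors' gene-by-gene normalization factors it was 0.17 (adjusted p = 0.243). Orai3 was -0.07 (adjusted p = 0.485) with total-count scaling, -0.17 (adjusted p = 0.121) without replicates 4 and 5 of β-Mfn1/2DKO and -0.07 (adjusted p = 0.881) with the depth term.

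**Figure D3:**
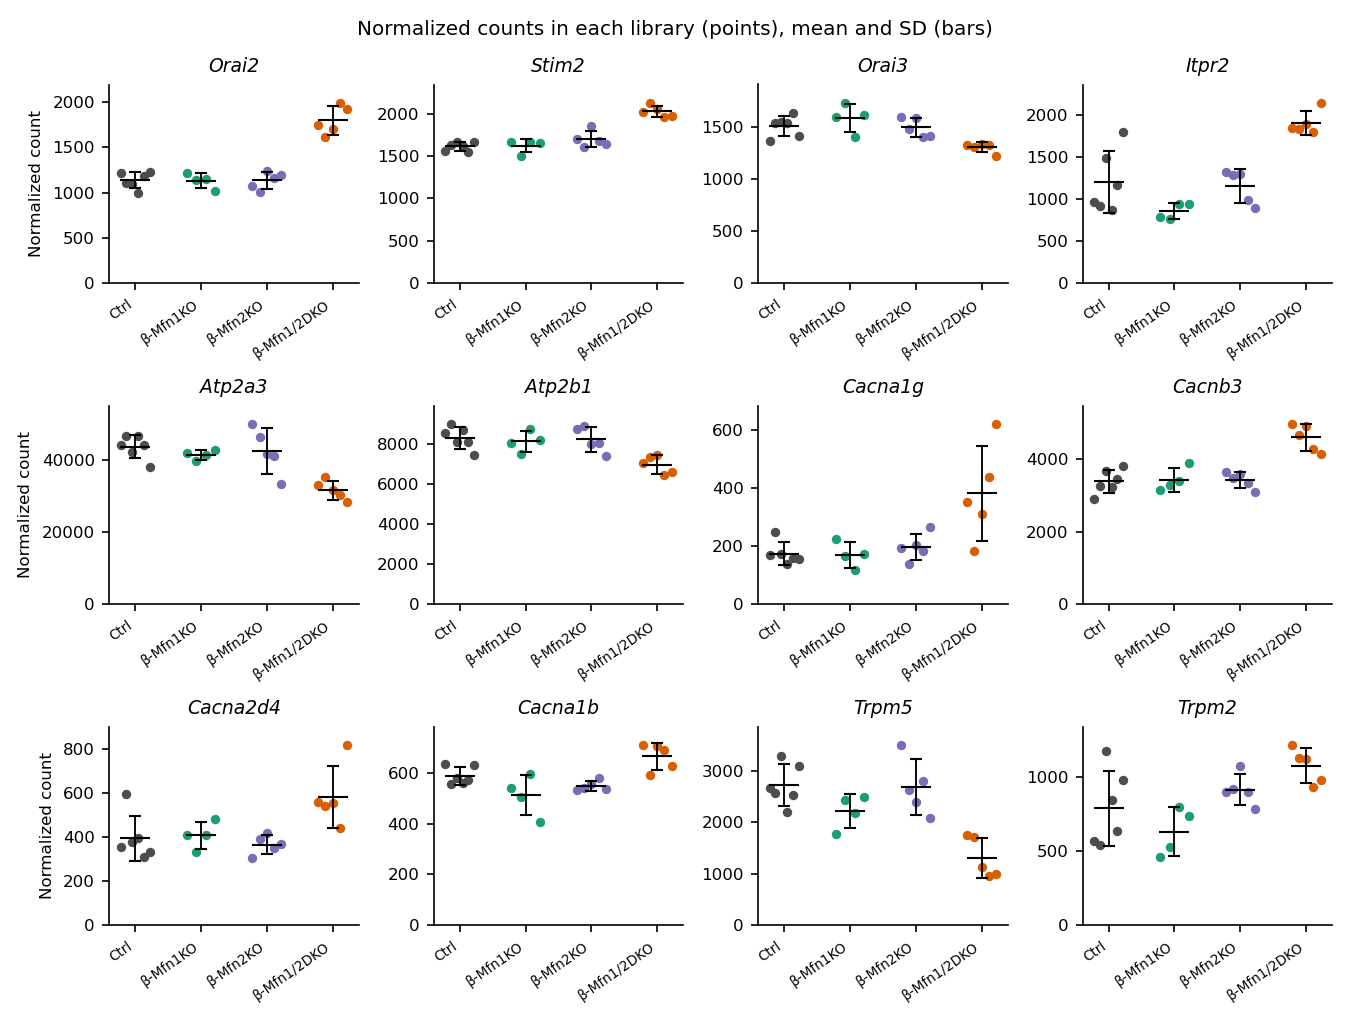
Normalized counts of 12 members in each library, 1 point per library, with the mean and SD of each group as bars and every axis starting at 0. For Orai2 and Stim2 the 5 β-Mfn1/2DKO points lie above all other points, for Orai3 they lie below them, and for Cacna1g they spread from 183 to 622.

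Promoters of 44 of the 55 members were matched by symbol in RefSeq (GRCm38.p6). The 250 bases before the start of transcription are shown, 5′ to 3′, for both store-operated genes that rose, for Itpr2 and for Trpm5, the last pair being called members that averaged 100 normalized counts or more and have an entry. Capitals mark matches on either strand to the GC box GGGCGG, the E-box CACGTG and the motif named for the factor NRF1, and TATAAA (known from core promoters), TGACGTCA (the cyclic AMP response element) and TGATGNAAT (the amino acid response element) were also searched. The RefSeq starts of Orai2 and Stim2 lie inside the GENCODE genes, downstream of their first base. Positions are chr5:136170657-136170906 on the minus strand for Orai2, chr5:53998273-53998522 on the plus strand for Stim2, chr6:146502224-146502473 on the minus strand for Itpr2 and chr7:143094643-143094892 on the minus strand for Trpm5.
Orai2: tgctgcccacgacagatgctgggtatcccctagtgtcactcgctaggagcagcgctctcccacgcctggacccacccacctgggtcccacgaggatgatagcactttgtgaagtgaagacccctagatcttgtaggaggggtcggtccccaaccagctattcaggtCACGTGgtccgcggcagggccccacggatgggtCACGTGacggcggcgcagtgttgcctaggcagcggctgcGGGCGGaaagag
Stim2: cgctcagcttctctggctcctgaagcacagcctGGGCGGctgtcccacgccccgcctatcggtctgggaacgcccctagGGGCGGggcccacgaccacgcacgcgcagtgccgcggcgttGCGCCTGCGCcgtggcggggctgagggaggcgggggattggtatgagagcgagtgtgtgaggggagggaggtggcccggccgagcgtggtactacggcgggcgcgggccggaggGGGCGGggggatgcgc
Itpr2: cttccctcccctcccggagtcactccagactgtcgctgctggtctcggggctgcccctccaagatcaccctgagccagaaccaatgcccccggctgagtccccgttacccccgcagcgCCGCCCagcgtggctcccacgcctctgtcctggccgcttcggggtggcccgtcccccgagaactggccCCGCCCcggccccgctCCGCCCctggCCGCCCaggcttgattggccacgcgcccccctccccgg
Trpm5: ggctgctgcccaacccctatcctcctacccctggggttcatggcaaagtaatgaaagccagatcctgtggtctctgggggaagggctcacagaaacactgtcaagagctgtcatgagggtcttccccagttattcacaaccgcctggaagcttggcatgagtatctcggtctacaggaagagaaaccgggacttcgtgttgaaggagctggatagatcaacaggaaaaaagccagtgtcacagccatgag

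The window of Orai2 held the E-box at 2 places and a GC box, Stim2 held 3 GC boxes and an NRF1 motif, Itpr2 held 4 GC boxes, and Trpm5 held none of the 6 motifs. Of all 32851 promoters of this length, 32.7% held a GC box, 6.02% an E-box, 3.74% an NRF1 motif, 12.4% the TATAAA motif, 1.55% a cyclic AMP response element and 0.816% an amino acid response element. The 44 matched members have 58 promoters in the same set. Of these 58, 29 held a GC box, 4 an E-box, 2 an NRF1 motif and 3 the TATAAA motif, and 0 held the remaining pair. Counted by gene, where any of its promoters may match, 27 of the 44 members had a GC box, 4 an E-box, 2 an NRF1 motif and 3 the TATAAA motif, a unit unlike that of the percentages. CpG dinucleotides numbered 17 for Orai2, 30 for Stim2, 22 for Itpr2 and 4 for Trpm5, where the median promoter had 6. No marked matches overlap in these windows. These are matches of letters, not shown sites of binding.

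Among the IP3 receptors, which release calcium from the endoplasmic reticulum, Itpr2 alone passed against Ctrl. Itpr2 (ENSMUSG00000030287, GRCm38 chr6:146108299-146502223, minus strand), the least abundant of the 3 per length, had 1852, 1830.5, 1891, 1798 and 2150.1 normalized counts in β-Mfn1/2DKO. It had a lowest value of 866, a median of 1067 and a highest value of 1796 in Ctrl, 790.0, 759, 939 and 942 in β-Mfn1KO and 1323, 1284, 1300.2, 983 and 896 in β-Mfn2KO. The β-Mfn1/2DKO values were above all others, though the lowest of them only just exceeded the highest Ctrl library. Itpr2 rose by 0.67 ± 0.15 (adjusted p = 0.00259) against Ctrl, 0.73 ± 0.15 (adjusted p = 0.00228) against β-Mfn2KO and 1.15 ± 0.17 (adjusted p = 4.13e-05) against β-Mfn1KO. Its difference in β-Mfn1KO against Ctrl was -0.48 ± 0.17 and did not pass (adjusted p = 0.571).

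Itpr3 was the most abundant IP3 receptor per length of merged exon, though its range overlapped that of Itpr1, and per length of the longest coding transcript Itpr1 led, at 23.3 against 13.5 CPM per kb. Itpr3 had 5445, 4203, 5165, 4487 and 5476 in β-Mfn1/2DKO, a lowest value of 4539, a median of 4984 and a highest value of 5703 in Ctrl, 4243, 3742, 4659 and 4028 in β-Mfn1KO and 5670.3, 5598, 5069, 5567 and 4748 in β-Mfn2KO. Its groups overlapped, with β-Mfn1KO the lowest, and the β-Mfn1/2DKO difference was -0.02 ± 0.08 (adjusted p = 0.884). Itpr1, the IP3 receptor best known from neurons, had 9516 ± 1255 in Ctrl, 8136 ± 854 in β-Mfn1KO, 9383 ± 735 in β-Mfn2KO and 10119 ± 1513 in β-Mfn1/2DKO, a β-Mfn1/2DKO difference from Ctrl of 0.09 ± 0.10 (adjusted p = 0.617). Against β-Mfn1KO it was higher by 0.31 ± 0.11 (adjusted p = 0.046). Itpr2 made up 11.3 ± 0.725% of the IP3 receptor counts in β-Mfn1/2DKO, against 7.55 ± 1.82% in Ctrl, 6.52 ± 0.431% in β-Mfn1KO and 7.26 ± 0.877% in β-Mfn2KO. The rise of Itpr2 over Ctrl was 1.14 (adjusted p = 0.0132) with a depth term, and it did not pass with the authors' factors, at 0.59 (adjusted p = 0.114).

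The 3 ryanodine receptors stayed near the floor in every group. Ryr3, the highest, had 32.6, 23.1, 21.5, 36.8 and 36.8 normalized counts in β-Mfn1/2DKO, a lowest value of 9.34, a median of 17.9 and a highest value of 38.6 in Ctrl, 36.3, 19.2, 37.2 and 33.3 in β-Mfn1KO and 16.9, 11.2, 26.9, 17.4 and 32.4 in β-Mfn2KO. The groups overlapped throughout. In the shallowest library 3 counts equal 10.5 normalized counts. Ryr1 and Ryr2 did not pass against Ctrl, with wide errors (log2 1.89 ± 1.22 and 0.94 ± 0.77, SE). Small changes of either could not be detected at this depth.

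Of the SERCA pumps that refill the endoplasmic reticulum, Atp2a3 passed against Ctrl and Atp2a2 did not. Atp2a2 (ENSMUSG00000029467, GRCm38 chr5:122453513-122502225, minus strand) had 89692, 88247, 89064, 87917 and 75729 normalized counts in β-Mfn1/2DKO, a lowest value of 72735, a median of 77955 and a highest value of 84191 in Ctrl, 81496, 71195, 84064 and 65519.9 in β-Mfn1KO and 75438, 85284, 95262, 79149 and 69816 in β-Mfn2KO. These ranges overlapped, and the difference from Ctrl was 0.14 ± 0.08 (adjusted p = 0.315). Atp2a3 (ENSMUSG00000020788, GRCm38 chr11:72961169-72993044, plus strand) had 33050.3, 35111, 31499, 30169 and 28262 in β-Mfn1/2DKO, a lowest value of 38139, a median of 44224 and a highest value of 46488 in Ctrl, 41804, 39564, 41229 and 42800.3 in β-Mfn1KO and 50059.5, 46293, 41594, 40934 and 33292 in β-Mfn2KO. All β-Mfn1/2DKO values were below Ctrl and β-Mfn1KO, and 1 β-Mfn2KO library, replicate 5, fell within their range. Atp2a3 fell by 0.46 on the log2 scale (SE 0.08, adjusted p = 0.000413) against Ctrl, short of the 1.5-fold limit, and by 0.42 (adjusted p = 0.00191) against β-Mfn2KO. Its share of the SERCA counts was 26.9 ± 1.11% in β-Mfn1/2DKO, 35.8 ± 2.67% in Ctrl, 35.5 ± 2.91% in β-Mfn1KO and 34.4 ± 3.58% in β-Mfn2KO. The 25.6 to 28.5% seen per library in β-Mfn1/2DKO lay below every other library. Atp2a1, the skeletal muscle SERCA gene, reached at most 3.30 normalized counts in any library. The lowest Ctrl and β-Mfn2KO libraries for Atp2a3 were those high in leukocyte and stellate cell markers, and without them the difference was -0.50 (adjusted p = 1.42e-05) from Ctrl and -0.50 (adjusted p = 4.95e-05) from β-Mfn2KO. Replicate 5 of β-Mfn2KO is also a deep library, and the other deep library of that group, replicate 4, was its next lowest at 40934. The part of depth in this overlap was not tested. The β cell markers fell in the same β-Mfn1/2DKO libraries, and their part in the fall of Atp2a3 was not tested. With a depth term the Atp2a3 difference from Ctrl was -0.16 (adjusted p = 0.663), and among deep libraries against β-Mfn2KO it was -0.18 (adjusted p = 0.429).

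**Figure D4:**
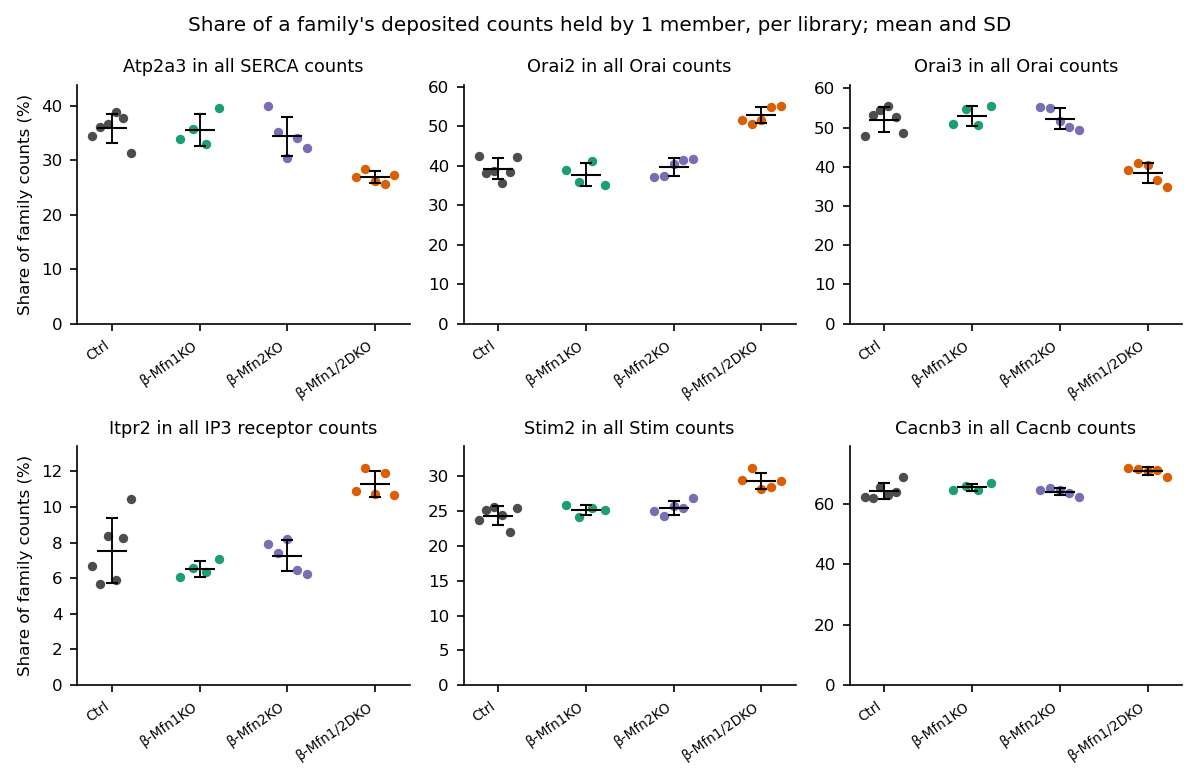
Share of a family's deposited counts held by Atp2a3, Orai2, Orai3, Itpr2, Stim2 and Cacnb3 in each library, in percent, with group means and SD, to which no scaling between libraries applies. In β-Mfn1/2DKO the shares of Atp2a3 and Orai3 lie below all other libraries and those of Orai2, Itpr2 and Stim2 above them, while the lowest Cacnb3 share lies just under the highest Ctrl library.

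Plasma membrane pumps expel calcium against its gradient. Atp2b1, the most abundant of them, had 7049, 7365, 7488, 6452 and 6608 in β-Mfn1/2DKO, a lowest value of 7490.1, a median of 8337 and a highest value of 9045 in Ctrl, 8062, 7520.1, 8772 and 8236 in β-Mfn1KO and 8779, 8935, 8025, 8056 and 7439.6 in β-Mfn2KO. All β-Mfn1/2DKO libraries were below Ctrl and β-Mfn1KO, and 1 β-Mfn2KO library, replicate 5, fell within their range. This library and the lowest Ctrl library were those high in leukocyte and stellate cell markers, and without them the difference was -0.28 (adjusted p = 0.00145) from Ctrl and -0.27 (adjusted p = 0.00449) from β-Mfn2KO. Replicate 5 of β-Mfn2KO is also a deep library, and the part of depth in its overlap was not tested. Atp2b1 fell by 0.25 (SE 0.06, adjusted p = 0.00569) against Ctrl, but was -0.17 (adjusted p = 0.121) without replicates 4 and 5 of β-Mfn1/2DKO, -0.11 (adjusted p = 0.243) with total-count scaling and -0.11 (adjusted p = 0.742) with a depth term. Atp2b4, another pump of this family, had 2052 ± 216 in Ctrl, 1787 ± 235 in β-Mfn1KO, 1890.3 ± 300.2 in β-Mfn2KO and 1685 ± 188 in β-Mfn1/2DKO, a β-Mfn1/2DKO difference from Ctrl of -0.29 ± 0.10 (adjusted p = 0.0522). Atp2b2, the pump known from hair cells of the inner ear, had 1659 ± 179.5 in Ctrl, 1560 ± 152 in β-Mfn1KO, 1624 ± 197 in β-Mfn2KO and 1473 ± 71.5 in β-Mfn1/2DKO, a difference of -0.17 ± 0.08 (adjusted p = 0.162).

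Of the sodium-calcium exchangers, which trade calcium for sodium at the plasma membrane, Slc8a1 had 3048, 3058, 3228, 3017 and 2664 in β-Mfn1/2DKO, a lowest value of 2474, a median of 2607 and a highest value of 2910.4 in Ctrl, 2730.0, 2444, 2893 and 2057 in β-Mfn1KO and 2844, 3112, 2880.4, 2589 and 2779.7 in β-Mfn2KO. The groups overlapped and the difference from Ctrl was 0.18 ± 0.07 (adjusted p = 0.094), while that from β-Mfn1KO passed at 0.25 ± 0.08 (adjusted p = 0.0346). Slc8a2, best known from brain, had 205 ± 25.5 in Ctrl, 206 ± 16.5 in β-Mfn1KO, 194 ± 29.9 in β-Mfn2KO and 235 ± 13.5 in β-Mfn1/2DKO (β-Mfn1/2DKO against Ctrl, adjusted p = 0.256).

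Of the 10 pore genes of the channels that admit calcium on depolarization, 1 passed against Ctrl. Cacna1d, the most abundant L-type pore gene here, had 7393, 7115, 7782, 6815 and 6471 in β-Mfn1/2DKO, a lowest value of 6149, a median of 6575 and a highest value of 6774 in Ctrl, 6055, 5589.9, 6984 and 5264 in β-Mfn1KO and 6652, 6947, 6848, 6780.1 and 6648 in β-Mfn2KO. The groups overlapped, with the lowest values in β-Mfn1KO. Its difference from Ctrl was 0.13 ± 0.06 (adjusted p = 0.18). Cacna1c, an L-type gene also of heart muscle, had 4442 ± 332 in Ctrl, 3925 ± 491 in β-Mfn1KO, 4595 ± 148 in β-Mfn2KO and 4707 ± 427 in β-Mfn1/2DKO, a β-Mfn1/2DKO difference from Ctrl of 0.08 ± 0.07 (adjusted p = 0.499). Cacna1a, the P/Q-type gene, had 4582 ± 282 in Ctrl, 3926 ± 552 in β-Mfn1KO, 4971 ± 408 in β-Mfn2KO and 4189 ± 403 in β-Mfn1/2DKO, a difference of -0.13 ± 0.08 from Ctrl (adjusted p = 0.304) and of -0.25 ± 0.08 from β-Mfn2KO, which passed (adjusted p = 0.0445). Against β-Mfn1KO, Cacna1d was higher by 0.25 ± 0.07 (adjusted p = 0.0118) and Cacna1c by 0.26 ± 0.08 (adjusted p = 0.0224), but with the authors' factors the Cacna1d difference turned to -0.19 (adjusted p = 0.62).

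Cacna1g (ENSMUSG00000020866, GRCm38 chr11:94408391-94474198, minus strand), a low-voltage-activated T-type pore gene, was the pore gene that was called. It had 353, 183, 310.5, 437 and 622 normalized counts in β-Mfn1/2DKO, a lowest value of 137, a median of 163 and a highest value of 249.6 in Ctrl, 223, 165, 117 and 172 in β-Mfn1KO and 192, 138, 205, 182 and 264 in β-Mfn2KO. Replicate 2 of β-Mfn1/2DKO lay within the Ctrl range and the other 4 above it, the highest being replicates 4 and 5, which also had the highest acinar markers. Cacna1g rose by 1.12 ± 0.24 (adjusted p = 0.00169) against Ctrl, 0.94 ± 0.24 (adjusted p = 0.0104) against β-Mfn2KO and 1.17 ± 0.27 (adjusted p = 0.00336) against β-Mfn1KO. Without replicates 4 and 5 of β-Mfn1/2DKO the difference from Ctrl was 0.71 (adjusted p = 0.0346) and that from β-Mfn2KO 0.53 (adjusted p = 0.157). With the authors' factors the difference from Ctrl was 0.65 (adjusted p = 0.194), and with a depth term 0.79 (adjusted p = 0.423). With the acinar score in the fit it was 0.92 (adjusted p = 0.0083) against Ctrl, 0.77 (adjusted p = 0.0289) against β-Mfn2KO and 0.82 (adjusted p = 0.0696) against β-Mfn1KO. The other T-type genes did not pass. Cacna1h had 594 ± 93.6 in Ctrl, 536 ± 91.1 in β-Mfn1KO, 598 ± 69.8 in β-Mfn2KO and 609.9 ± 94.0 in β-Mfn1/2DKO (β-Mfn1/2DKO against Ctrl, adjusted p = 0.89), and Cacna1i had 104 ± 51.8 in Ctrl, 128 ± 27.8 in β-Mfn1KO, 119 ± 48.2 in β-Mfn2KO and 92.5 ± 19.4 in β-Mfn1/2DKO (adjusted p = 0.751).

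Cacna1b, the N-type pore gene, had 711, 591, 706, 689 and 627 in β-Mfn1/2DKO, a lowest value of 554, a median of 576 and a highest value of 634 in Ctrl, 539, 506, 596 and 407 in β-Mfn1KO and 530.4, 541, 557, 579 and 537 in β-Mfn2KO. All β-Mfn1/2DKO values were above β-Mfn2KO, but they overlapped Ctrl and β-Mfn1KO. It did not pass against Ctrl (0.18 ± 0.08, adjusted p = 0.141) but was higher than in β-Mfn2KO by 0.28 ± 0.08 (adjusted p = 0.0263) and than in β-Mfn1KO by 0.38 ± 0.09 (adjusted p = 0.00415). With the authors' factors these were 0.16 (adjusted p = 0.695) and 0.04 (adjusted p = 0.946).

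Accessory subunits set how many channels reach the membrane and how they gate. Cacnb3 (ENSMUSG00000003352, GRCm38 chr15:98630840-98644529, plus strand), the most abundant β-subunit gene, had 4984, 4662, 4924, 4276 and 4156 in β-Mfn1/2DKO, a lowest value of 2910.4, a median of 3353 and a highest value of 3807 in Ctrl, 3146, 3294, 3392 and 3900.3 in β-Mfn1KO and 3645, 3482, 3578, 3339 and 3084 in β-Mfn2KO. All 5 β-Mfn1/2DKO values exceeded every other library. Cacnb3 rose by 0.44 ± 0.07 (adjusted p = 0.00011) against Ctrl, 0.43 ± 0.07 (adjusted p = 0.00035) against β-Mfn2KO and 0.42 ± 0.08 (adjusted p = 0.000487) against β-Mfn1KO, below the 1.5-fold limit each time. It passed against Ctrl in every alternative run, at 0.59 (adjusted p = 0.0108) with a depth term and 0.40 (adjusted p = 0.000831) with the authors' factors. Cacnb2 had 1195 ± 72.9 in Ctrl, 1127 ± 143 in β-Mfn1KO, 1235 ± 58.3 in β-Mfn2KO and 1166 ± 74.7 in β-Mfn1/2DKO, a difference of -0.04 ± 0.07 (adjusted p = 0.751), and Cacnb1 had 643 ± 49.1 in Ctrl, 652 ± 39.3 in β-Mfn1KO, 646 ± 29.7 in β-Mfn2KO and 686 ± 55.1 in β-Mfn1/2DKO, a difference of 0.09 ± 0.07 (adjusted p = 0.409). Cacnb3 made up 70.9 ± 1.25% of β-subunit counts in β-Mfn1/2DKO and 64.2 ± 2.54% in Ctrl.

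Cacna2d1, the most abundant α2δ gene, had 7145, 7303, 7859.9, 6911 and 6727 in β-Mfn1/2DKO, a lowest value of 6067, a median of 6546 and a highest value of 7169 in Ctrl, 5533, 5741, 6544 and 5788 in β-Mfn1KO and 6723, 6918, 7282, 6707 and 6139 in β-Mfn2KO. Its values overlapped between β-Mfn1/2DKO and Ctrl (0.14 ± 0.06, adjusted p = 0.122), and it was higher than in β-Mfn1KO by 0.28 ± 0.07 (adjusted p = 0.00335). Cacna2d4 had 558, 541, 555, 441 and 822 in β-Mfn1/2DKO, a lowest value of 309, a median of 369 and a highest value of 594 in Ctrl, 410.3, 333, 412 and 482 in β-Mfn1KO and 307, 391, 417, 349 and 368 in β-Mfn2KO. It was above all β-Mfn2KO libraries in every β-Mfn1/2DKO library, while replicate 2 of Ctrl and replicate 4 of β-Mfn1KO lay within the β-Mfn1/2DKO range. Cacna2d4 rose by 0.55 ± 0.15 (adjusted p = 0.0146) against Ctrl and was called against β-Mfn2KO, at 0.67 ± 0.16 (adjusted p = 0.00621). With the authors' factors these were 0.64 (adjusted p = 0.101) and 0.75 (adjusted p = 0.0765), and without replicate 5 of β-Mfn1/2DKO the difference from Ctrl was 0.40 (adjusted p = 0.0627). Cacna2d2, a further α2δ gene, had 381 ± 96.3 in Ctrl, 348 ± 82.5 in β-Mfn1KO, 395 ± 76.3 in β-Mfn2KO and 384 ± 43.6 in β-Mfn1/2DKO (adjusted p = 1).

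Of the 8 γ-subunit genes, some of which encode regulators of AMPA receptors, only Cacng4 averaged at least 100. It had 213, 263, 213, 158 and 198 in β-Mfn1/2DKO, a lowest value of 125, a median of 165 and a highest value of 213 in Ctrl, 207, 179, 176 and 197 in β-Mfn1KO and 172, 145, 143, 131 and 133 in β-Mfn2KO. These overlapped Ctrl (0.30 ± 0.15, adjusted p = 0.181), and Cacng4 was higher than in β-Mfn2KO by 0.54 ± 0.15 (adjusted p = 0.0207). Cacng2 averaged 49.3 ± 10.7 in Ctrl and 73.6 ± 12.8 in β-Mfn1/2DKO, a rise of 0.58 ± 0.19 (adjusted p = 0.0367) that kept its direction but did not pass in 6 of 11 fits that left out 1 library (log2 fold change 0.50 to 0.56, adjusted p = 0.0699 to 0.0927).

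Among the members that passed against Ctrl, the deepest fall was that of a TRPM channel. Trpm5 (ENSMUSG00000009246, GRCm38 chr7:143069153-143094642, minus strand), a channel that calcium opens to sodium and potassium, depolarizing taste and β cells, had 1742, 1712, 1123, 945 and 994 normalized counts in β-Mfn1/2DKO. It had a lowest value of 2196, a median of 2615 and a highest value of 3291 in Ctrl, 1761, 2431, 2181 and 2478 in β-Mfn1KO and 3507, 2629, 2385, 2800.2 and 2073 in β-Mfn2KO. Each β-Mfn1/2DKO value was below all other libraries, and replicates 3, 4 and 5, the males, were below replicates 1 and 2, the females. Replicates 4 and 5 also had the highest acinar and the lowest β cell marker sums. In Ctrl and β-Mfn2KO the sexes overlapped, and the 1 male of β-Mfn1KO was the highest of its group. Trpm5 fell by 1.06 (SE 0.16, adjusted p = 6e-05) on the log2 scale against Ctrl, by 1.04 (adjusted p = 0.000157) against β-Mfn2KO and by 0.76 (adjusted p = 0.00319) against β-Mfn1KO. With a depth term the difference from Ctrl was -0.84 (adjusted p = 0.128), and among deep libraries against β-Mfn2KO -0.85 (adjusted p = 0.0887). Trpm5 shares 220 exon bases with Tssc4 on the opposite strand, and whether counting used strand is not stated, so reads there cannot be assigned with certainty. The β cell markers fell in the same libraries, and their part in the fall of Trpm5 was not tested.

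Trpm2, a channel opened by ADP-ribose and oxidants, had 1222, 1132, 1125, 936 and 979 in β-Mfn1/2DKO, a lowest value of 539, a median of 742 and a highest value of 1176 in Ctrl, 458, 528, 799.7 and 740.1 in β-Mfn1KO and 903, 918, 1079.5, 899 and 785 in β-Mfn2KO. The β-Mfn1/2DKO values were above all of β-Mfn1KO and overlapped Ctrl and β-Mfn2KO. It was called against β-Mfn1KO (0.77 ± 0.19, adjusted p = 0.00554) and did not pass against Ctrl (0.45 ± 0.17, adjusted p = 0.0671). Trpm7, a channel fused to a kinase, had 2242 ± 105 in Ctrl, 2222 ± 211 in β-Mfn1KO, 2418 ± 116 in β-Mfn2KO and 2237 ± 135 in β-Mfn1/2DKO (β-Mfn1/2DKO against Ctrl, adjusted p = 0.989). Trpm4, like Trpm5 opened by calcium, had 949.8 ± 73.4 in Ctrl, 943 ± 89.6 in β-Mfn1KO, 906 ± 93.2 in β-Mfn2KO and 1053 ± 131 in β-Mfn1/2DKO (adjusted p = 0.258). Trpm5 was 43.6 to 63.4% of their joint counts per library in β-Mfn1/2DKO against 70.9 to 77.9% in Ctrl. Trpm3, a heat- and steroid-sensitive channel, had 752 ± 133 in Ctrl, 668 ± 107 in β-Mfn1KO, 843 ± 92.7 in β-Mfn2KO and 651 ± 83.5 in β-Mfn1/2DKO (adjusted p = 0.269), and differed from β-Mfn2KO by -0.37 ± 0.12 (adjusted p = 0.0422).

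The remaining 21 members averaged from 0.411 to 62.3 normalized counts, 12 of them under 10. Trpm8, the cold-sensing channel gene, was called in β-Mfn1/2DKO with 119.0 deposited counts over 5 libraries against 3.0 in 6 Ctrl libraries, a depth-corrected ratio of 6.70 (95% exact binomial interval 2.24 to 32.9, counting error only). Against the 4 β-Mfn1KO libraries Trpm8 was called with 119 counts against 1, a depth-corrected ratio of 14.2 (95% exact binomial interval 2.51 to 567, counting error only). Cacng3 was called against β-Mfn2KO with 159.0 deposited counts over 5 libraries against 16.0, a depth-corrected ratio of 3.21 (95% exact binomial interval 1.92 to 5.75, counting error only). Cacna1e was called against β-Mfn1KO with 391.0 deposited counts over 5 libraries against 19, a depth-corrected ratio of 2.46 (95% exact binomial interval 1.56 to 4.13, counting error only). For none of these did the adjusted p pass in every alternative run, and the Ctrl, β-Mfn1KO and most β-Mfn2KO libraries hold few counts of them.

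The interaction separates the joint loss from the sum of the single losses. It was 1.21 ± 0.23 (log2, SE; adjusted p = 0.00224) for Itpr2, whose value was -0.48 ± 0.17 in β-Mfn1KO and -0.06 ± 0.15 in β-Mfn2KO. For Orai2 it was 0.67 ± 0.10 (adjusted p = 0.000536), close to the whole change in β-Mfn1/2DKO, with -0.01 ± 0.08 in β-Mfn1KO and 0.00 ± 0.07 in β-Mfn2KO. It was 0.47 ± 0.12 (adjusted p = 0.0193) for Cacna1b, 0.41 ± 0.11 (adjusted p = 0.0226) for Cacnb3 and 0.25 ± 0.07 (adjusted p = 0.0276) for Stim2. For Cacna1b the term includes lower values in both single knockouts, -0.20 ± 0.09 in β-Mfn1KO and -0.10 ± 0.08 in β-Mfn2KO, neither of which passed. Its difference from Ctrl in β-Mfn1/2DKO, 0.18 ± 0.08, did not pass either. The falls of Trpm5 (-0.74 ± 0.24, adjusted p = 0.0681) and Atp2a3 (-0.35 ± 0.12, adjusted p = 0.112) did not pass this test, nor did the rise of Cacna1g (0.99 ± 0.36, adjusted p = 0.12). With the authors' factors 1 member passed the interaction test, Orai2 at 0.66 (adjusted p = 0.00891).

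Several smaller differences no longer passed, but kept their direction, when 1 library was left out. The values in brackets are the log2 fold changes and adjusted p of those fits. Against β-Mfn2KO this held in 8 of 10 such fits for Cacna1a (-0.25 to -0.19, adjusted p = 0.0572 to 0.171), Trpm3 (-0.38 to -0.28, adjusted p = 0.0527 to 0.14) and Orai3 (-0.20 to -0.15, adjusted p = 0.057 to 0.115). It held for Atp2b1 without replicate 2 of β-Mfn2KO or replicate 4 of β-Mfn1/2DKO (-0.21 to -0.19, adjusted p = 0.0555 to 0.074) and for Orai1 without replicate 1 or 2 of β-Mfn2KO or replicate 5 of β-Mfn1/2DKO (0.32 to 0.36, adjusted p = 0.0645 to 0.0819). For Cacna1b it held without replicate 1 or 2 of β-Mfn2KO or replicate 1 of β-Mfn1/2DKO (0.27, adjusted p = 0.0511 to 0.0605), and for Cacng4 without replicate 4 of β-Mfn2KO or replicate 2 of β-Mfn1/2DKO (0.46 to 0.50, adjusted p = 0.0538 to 0.0559).

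Against β-Mfn1KO it held for Cacna1c (0.19 to 0.26, adjusted p = 0.0501 to 0.11) and Cacna1d (0.20 to 0.22, adjusted p = 0.0519 to 0.0603) without replicate 2 or 4 of β-Mfn1KO, and for Slc8a1 without either of these or replicate 3 of β-Mfn1/2DKO (0.16 to 0.25, adjusted p = 0.051 to 0.164). It held in 6 of 9 fits for Atp2b1 (-0.23 to -0.17, adjusted p = 0.0516 to 0.125) and in 5 of 9 for Itpr1 (0.23 to 0.33, adjusted p = 0.0598 to 0.17). The interaction was lost for Cacnb3 without replicate 1 or 2 of β-Mfn1KO (0.37 to 0.39, adjusted p = 0.0551 to 0.0609) and for Stim2 without replicate 2 of β-Mfn1KO or replicate 2 or 4 of β-Mfn2KO (0.22 to 0.25, adjusted p = 0.0509 to 0.0714). Without both libraries high in leukocyte markers, the interaction was 0.44 (adjusted p = 0.0502) for Cacna1b, 0.34 (adjusted p = 0.0634) for Cacnb3 and 0.23 (adjusted p = 0.0779) for Stim2, and the difference of Cacna1b from β-Mfn2KO was 0.27 (adjusted p = 0.0522). With the acinar score in the fit, the differences from β-Mfn1KO that no longer passed were Atp2b1 at -0.19 (adjusted p = 0.154), Cacna1e at 1.16 (adjusted p = 0.153), Cacna1g at 0.82 (adjusted p = 0.0696), Cacna2d4 at 0.37 (adjusted p = 0.265) and Itpr1 at 0.29 (adjusted p = 0.163), and those from β-Mfn2KO Cacna1a at -0.25 (adjusted p = 0.0511), Orai1 at 0.34 (adjusted p = 0.0514) and Orai3 at -0.18 (adjusted p = 0.0552).

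**Figure D5:**
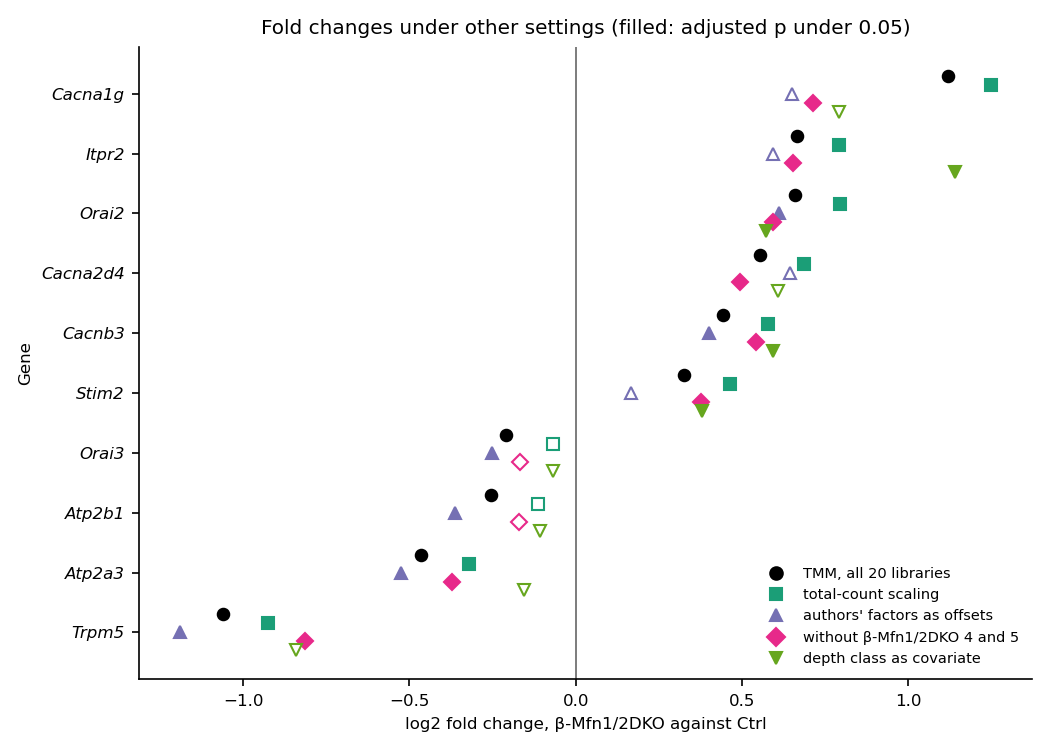
Log2 fold change of 10 members in β-Mfn1/2DKO against Ctrl under TMM scaling, total-count scaling, the authors' normalization factors, the fit without replicates 4 and 5 of β-Mfn1/2DKO and the fit with a depth term, filled where the adjusted p was under 0.05. Orai2 and Cacnb3 are filled under all 5 settings, Itpr2 and Stim2 are open under the authors' factors alone, and no sign changes.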

How the data were processed

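RNA from islets of 20 libraries was sequenced as paired-end reads. Per the study's methods and the submitters' processing notes, the authors aligned reads to GRCm38 with STAR 2.6.1b and deposited gene-level estimated counts from RSEM 1.3.1 (held as whole numbers, and rounded here before the fit), cutadapt 2.3 and FastQC 0.11.8 being named too; genes with 0 counts throughout were dropped, and whether counting used strand is not given in the sources used here. A deposited table of depth-normalized signal holds those counts divided by factors from DESeq2 (1.26.0) that differ between genes within a library. How these factors were made is not given in the sources used here, and they served only as an alternative chosen after seeing the data. Every column was mapped to 1 sample, and no other column was present.

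Of 28632 genes, 28579 were matched to a symbol in GENCODE vM21. All were fitted unfiltered in edgeR 4.0.16 (R 4.3.3, limma 3.58.1) by glmQLFit with TMM scaling, 1 coefficient per group and the thresholds named in the report. Each SE was taken as the size of the log2 fold change over the square root of its F. The chi-square of counts per degree of freedom between replicates of a group was at least 6.305, so all 20 were kept as separate libraries. Alternatives were DESeq2 1.42.0, its size factors in edgeR, total-count scaling, filterByExpr, only the groups compared, sex, replicate block, acinar score or depth class (above 40000000 counts) as terms, counts thinned to the smallest total, deep libraries only, and libraries left out (Ctrl replicate 6 with β-Mfn2KO replicate 5 after seeing the data). The fit was tested on simulated data.

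Members and lists were chosen with earlier results of these data known. Values in every library are printed for members called in any contrast that averaged 100 normalized counts or more and for the most abundant member per length of each class, and were added for other members that passed; group means are printed for the remaining members of that abundance. From each pathway list up to 3 called genes per direction that averaged 100 normalized counts or more were named. Confidence limits on sparse counts are exact binomial and cover counting error only.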

Additional observations from a re-analysis of the deposited data

Results flagged for a closer look

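Groups of 4 to 6 libraries were checked for 1 library far from the others in 84 cases, 21 members in 4 groups, and chance sets apart about 1 in 20. It happened in 5 cases. Ctrl replicate 2 was the highest of its group for Cacna1g, at 249.6 normalized counts, where the gap to the nearest library was 0.677 of the group's range, and for Cacna2d4, at 594 (0.694 of the range). β-Mfn1/2DKO replicate 5 was the highest for Itpr2, at 2150.1 (0.735), and the lowest for Orai3, at 1219.9 (0.807). β-Mfn1KO replicate 2 was the lowest for Stim2, at 1504 (0.932). Without replicate 5 of β-Mfn1/2DKO, Orai3 differed from Ctrl by -0.19 (log2, adjusted p = 0.0399) and Itpr2 by 0.62 (adjusted p = 0.00786) in edgeR's quasi-likelihood test. Without replicate 2 of Ctrl, Cacna1g differed by 1.26 (adjusted p = 0.00106) and Cacna2d4 by 0.72 (adjusted p = 0.000923).

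In the main fit the interaction term of the edgeR model, with Benjamini-Hochberg adjustment, passed for 5 members. It compares the loss of Mfn1 in islets that lacked Mfn2 with that in islets that had it. The log2 difference was 1.21 for Itpr2 (adjusted p = 0.00224), 0.67 for Orai2 (adjusted p = 0.000536), 0.47 for Cacna1b (adjusted p = 0.0193), 0.41 for Cacnb3 (adjusted p = 0.0226) and 0.25 for Stim2 (adjusted p = 0.0276). Of 32 alternative fits, the term stayed past the threshold in 32 for Orai2, 31 for Itpr2, 29 for Cacna1b, 28 for Cacnb3 and 24 for Stim2. Depth goes with the β-Mfn1/2DKO genotype in this term too, apart from the deep β-Mfn2KO libraries.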

How the results depend on the processing

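Of 1246 alternative values for 52 pairs of a member and a contrast that passed, 1031 kept their direction and stayed past the threshold, 214 kept the direction only and 1 reversed, Cacna1d against β-Mfn1KO at -0.19 with the authors' factors (chosen after seeing the data; the cause was not tested). Members past an adjusted p of 0.05 and called, against Ctrl, were 12 and 5, and became 22 and 8 with total-count scaling and 4 and 2 with a depth term, with 3 called under the authors' factors. Against β-Mfn2KO the 16 and 6 became 5 and 3 with the depth term, 4 and 2 among deep libraries (5 against 2) and 6 and 2 with the authors' factors, with 8 past without β-Mfn1/2DKO replicates 4 and 5. Against β-Mfn1KO the 19 and 7 became 5 and 1 with the depth term, with 4 called under an acinar covariate and 11 past under the authors' factors. The interaction's 5 and 2 became 1 and 1 with the authors' factors, 3 past with the depth term, 8 past in DESeq2 and 4 called with total-count scaling. The 10 called genes of the pathway lists became 4 with the depth term and 16 without both libraries high in leukocyte markers. Leaving out 1 library gave 10 to 16 past against β-Mfn2KO (10 without replicate 1 or 2 of β-Mfn2KO), and for the interaction 4 to 8 past (8 without replicate 5 of β-Mfn2KO) and 2 to 4 called (4 without replicate 5 of β-Mfn2KO or 2 of β-Mfn1/2DKO). Of all genes called against Ctrl, 62.2% were higher, and 79.6% with total-count scaling.

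Over all alternatives run against Ctrl, the adjusted p ranged from 7.86e-16 to 0.015 for Orai2, 5.43e-07 to 0.0108 for Cacnb3, 2.14e-10 to 0.243 for Stim2, 1.87e-05 to 0.114 for Itpr2, 1.87e-09 to 0.128 for Trpm5, 5.03e-08 to 0.663 for Atp2a3, 0.000109 to 0.423 for Cacna1g, 0.000923 to 0.336 for Cacna2d4, 2.26e-05 to 0.742 for Atp2b1 and 0.000217 to 0.881 for Orai3. The authors' factors, as the mean log2 factor in β-Mfn1/2DKO minus that in Ctrl, differed by 0.47 for Cacna1b, 0.40 for Cacna1g, 0.13 for Stim2 and -0.22 for Cacna2d4, where the 5th to 95th percentile of genes averaging 100 or more was -0.12 to 0.14.

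Replicate numbers were not taken to pair the libraries in the main fit. Deviations of same-numbered libraries correlated at a mean r of 0.232 over 27 pairs (lowest -0.114), against -0.051 over 122 other pairs. For other numbers of the same sex it was 0.164. Most same-numbered pairs are of the same sex, and pairing or a batch by number was not tested apart from sex. With the replicate block, 15 members passed and 6 were called against Ctrl, 16 and 6 against β-Mfn2KO, 19 and 6 against β-Mfn1KO, 5 and 3 in the interaction and 0 in the single knockouts. Depth limits the 21 members under 100 normalized counts, where 3 counts are worth 10.5 in the shallowest library and 0.922 in the deepest.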

Other observations

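Genes around the channels and pumps were counted from lists in the same edgeR fit, β-Mfn1/2DKO against Ctrl, beside the 9.59% of all genes that passed higher and the 6.86% that passed lower. Of all genes that averaged 100 normalized counts or more, 33.6% passed in either direction, and the lists hold many genes of that abundance. The lists were drawn up with earlier results of these data known, and no excess is read from their counts. The small regulators of SERCA and of store release gave 2 higher and 3 lower past an adjusted p of 0.05 among 17 genes present. Jph3, a junctophilin that ties the endoplasmic reticulum to the plasma membrane, ran from 1838 to 2468 normalized counts in Ctrl and from 3502 to 5005 in β-Mfn1/2DKO. The ranges did not overlap, and Jph3 rose by 1.04 ± 0.11 (log2, SE; adjusted p = 4.58e-07). Mrln, which encodes myoregulin, a micropeptide that inhibits SERCA in muscle, ran from 503 to 1183 normalized counts in Ctrl and from 288 to 394 in β-Mfn1/2DKO and changed by -1.50 ± 0.19 (log2, SE; adjusted p = 6.11e-06), again without overlap. Tmem38a, which encodes the potassium channel TRIC-A of the store membrane, ran from 1304 to 1945 normalized counts in Ctrl and from 983 to 1227 in β-Mfn1/2DKO and changed by -0.62 ± 0.09 (log2, SE; adjusted p = 5.76e-05). With a depth term these were 1.3 (adjusted p = 0.000332) for Jph3, -2.24 (adjusted p = 3.32e-05) for Mrln and -0.42 (adjusted p = 0.201) for Tmem38a.

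Calcium-dependent kinases, the phosphatase calcineurin and their targets gave 6 higher and 0 lower of 24, of which 21 averaged 100 normalized counts or more. Ppp3ca, the catalytic Aα subunit of calcineurin, ran from 2029 to 2392 normalized counts in Ctrl and from 3316 to 3611 in β-Mfn1/2DKO. It rose by 0.64 ± 0.05 (log2, SE; adjusted p = 9.12e-09), and by 0.66 (adjusted p = 0.000263) with a depth term. Camk1d, a calmodulin-dependent kinase, ran from 112 to 161 normalized counts in Ctrl and from 212 to 386 in β-Mfn1/2DKO and rose by 1.04 ± 0.15 (log2, SE; adjusted p = 4.4e-05), with 0.78 (adjusted p = 0.158) under the depth term. Mitochondrial calcium transport gave 3 higher and 1 lower of 13, all 13 averaging 100 normalized counts or more. Vdac3, an outer-membrane channel, rose by 0.69 on the log2 scale (SE 0.09, adjusted p = 1.01e-05). The endoplasmic reticulum calcium buffers gave 1 higher and 4 lower of 14, and Pdia4, a disulfide isomerase, changed by -0.63 ± 0.14 (log2, SE; adjusted p = 0.00302). Other calcium-permeable channels gave 4 higher and 3 lower of 33, with the endolysosomal channel gene Mcoln3 at 0.93 ± 0.22 (log2, SE; adjusted p = 0.00479) and Trpc4 at -0.72 ± 0.21 (log2, SE; adjusted p = 0.0172). Regulators of voltage-gated channels gave 0 higher and 2 lower of 16, and phospholipase C and IP3 supply 1 higher and 1 lower of 15, with none called. With a depth term the values were 0.55 (adjusted p = 0.0771) for Vdac3, -0.34 (adjusted p = 0.585) for Pdia4, 1.04 (adjusted p = 0.215) for Mcoln3 and -0.31 (adjusted p = 0.802) for Trpc4, none of which passed.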
